A study of Danio rerio with 6 samples.

Results

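Hemoglobin carries oxygen in the red cell as a tetramer that pairs alpha globin chains with beta globin chains. Zebrafish switch globins as they grow: embryonic and larval chains are made by the first, primitive red cells, and adult chains take over in red cells formed later. Alpha and beta genes lie interleaved in clusters, so that a red cell must balance the output of several gene copies of each kind, and heme, the iron-holding group of each chain, has to be made in step with them.

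The globins described here are all rows of the deposited count tables whose symbol begins with hbaa, hbae, hbba or hbbe, which gave 6 of 14791 genes. They are the adult alpha gene hbaa1, the embryonic alpha genes hbae1 and hbae3, and the embryonic beta genes hbbe1.1, hbbe2 and hbbe3. No row began with hbba, so the adult beta class had 0 members under the rule. In all, 4 members passed the expression filter and were tested, and hbaa1 and hbbe3 did not.

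Poly(A) RNA came from 6 pools of 18 to 20 whole zebrafish of strain AB, taken 96 h post fertilization (hpf). All animals were taken out of the chorion at 24 hpf and then kept, 5 to a glass vial, in 0.05% v/v DMSO without renewal. The 3 DMSO pools received this vehicle alone, and the 3 PCB-11 pools received it with 4500 µg/L of PCB-11, 3,3'-dichlorobiphenyl, a polychlorinated biphenyl with few chlorines. The labels are silent on whether the pools shared a clutch or an exposure, so the tests reflect variation among these pools, and some of that may be technical.

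Each pool had between 15705712 and 20479751 counts in genes. PCB-11 replicate 2 had the lowest total and the highest share of reads outside genes (39.1%, against 31.4% to 35.0% in the other pools), and a number of fold changes are therefore also given without it. Of 12 red cell markers, 10 were found in the tables and each had counts in every pool, as did all 3 liver and all 3 skeletal muscle markers, as the label of a whole animal requires. Of the 3 neuron markers, gap43 was listed at 0 in every pool and the other two had counts in every pool. In such bulk samples, fewer red cells and less RNA per red cell cannot be told apart.

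The assembly GRCz12tu, used here for names and neighbours, lists 17 globin genes in 2 clusters. In it hbaa1, hbae1 (there hbae1.1), hbae3 and hbbe1.1 lie in the larger cluster of 13 genes, and hbbe2 and hbbe3 lie apart from them in the smaller cluster of 4. The larger cluster also holds hbae1.2, hbae1.3, hbbe1.2 and hbbe1.3, close relatives of members. Reads of near-identical copies can be dropped or exchanged in counting, so levels of hbae1 and hbbe1.1 are uncertain as levels of a single gene. Levels are given as CPM, counts scaled to library size after TMM adjustment. No transcript lengths were used, so levels are not ranked between genes, and only the same gene or the same ratio is compared across pools.

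Embryonic globins made up nearly all globin counts in these animals. The members together took 0.0712% ± 0.00657 of gene counts in DMSO and 0.0793% ± 0.00653 in PCB-11 (SD, n = 3 pools each). Any globin reads dropped in counting are missing from these values, so they need not give the globin part of the RNA. Adult counts, all from hbaa1, were 6 of 40028 globin counts in the DMSO pools and 2 of 43650 in the PCB-11 pools. Over the 6 pools that is a share of 0.00956%, with a 95% Wilson interval of 0.00484% to 0.0189%. The interval is over summed reads, which carry no molecular identifiers, and it leaves out variation between pools. That share and interval count hbaa1 alone. They leave out adult globin rows under other symbols, described below, which had 13 counts over all pools.

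In the order of replicates 1, 2 and 3, the adult alpha gene hbaa1 had 3, 0 and 3 counts in the DMSO pools, and after PCB-11 it had 0, 1 and 1. The embryonic beta gene hbbe3 had 1, 1 and 2 counts and 2, 1 and 1. Neither gene went above 3 counts in any pool, the number that a listed 0 allows and that equals 0.153 to 0.184 CPM at these depths. No embryonic to adult ratio per pool and no fold between the groups is therefore given. The groups could not be told apart in their adult share at this depth.

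Rows that carry a globin under another symbol were also checked for the adult class. The RefSeq table matched 9 such rows, and 6 of them were adult genes or their synonyms, among them ba1, ba1l and zgc:92880, the last listed there as hbba2. These 6 rows together had 13 counts over all pools, with at most 3 in any pool, and 4 of the 9 rows were listed at 0 in every pool. A listed 0 does not separate an absent transcript from reads that counting dropped.

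Among the 4 tested members, the beta gene hbbe1.1 parted the groups. Its level was 113.6, 103.7 and 109.4 CPM in the DMSO pools, again in replicate order, against 158.7, 128.2 and 157.2 CPM in the PCB-11 pools. All PCB-11 pools lay above all DMSO pools, which held for 10.0% of all genes tested. In either direction the groups did not overlap for 1 of the 4 members, against 19.4% of all genes tested. The mean was 108.9 ± 4.96 CPM in DMSO and 148.0 ± 17.2 CPM in PCB-11 (SD, n = 3 pools each). This is 1.36-fold, or 0.44 ± 0.11 (SE) on the log2 scale, with a 95% interval of 0.19 to 0.70. It did not pass the threshold of 0.05 in edgeR's quasi-likelihood test with Benjamini-Hochberg adjustment over all genes (unadjusted p = 0.00315, adjusted p = 0.308). DESeq2 called it (adjusted p = 0.0485, with 0.899% of genes called) and limma-voom did not (adjusted p = 0.313). Without PCB-11 replicate 2, the lowest of its group, the log2 fold change was 0.54 (adjusted p = 0.109 in edgeR).

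Markers of other tissues also stood apart between the groups. The 3 lens markers summed to 1268 to 1518 CPM in DMSO and 1807 to 2343 CPM in PCB-11, with no overlap. The crystallin genes cryaa (log2 fold change 0.50 ± 0.09), cryba1b (0.52 ± 0.15) and crygm2d1 (0.61 ± 0.14) had values near that of hbbe1.1 or above it, and edgeR called none of the 3 (smallest adjusted p = 0.217, all 3 under 0.05 before adjustment). DESeq2 called all 3 of these lens genes and limma-voom 0, against 0.899% and 0.00% of all genes. Before adjustment 11.8% of all genes were under 0.05 in edgeR, and in 10.0% all PCB-11 pools lay above all DMSO pools. Of the 3 liver markers, fabp10a, a fatty acid binding protein gene, had 0.46 ± 0.13 with no overlap (adjusted p = 0.317 in edgeR), and the 3 together overlapped at 5279 to 6497 and 4993 to 7541 CPM. The neuron marker snap25a had 0.31 ± 0.17 with no overlap, while the neuron marker elavl3 had -0.19 ± 0.26 and overlapped. Neuron markers together overlapped, at 578 to 631 CPM in DMSO and 588 to 918 CPM in PCB-11. The 3 skeletal muscle markers overlapped as well. The part of these tissues in the globin values was not tested.

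The second beta gene, hbbe2, showed no such gap. It had 133.7, 109.1 and 123.1 CPM in the DMSO pools against 111.4, 95.7 and 123.1 CPM in the PCB-11 pools. The groups overlapped, and PCB-11 replicate 2 was the lowest pool. The log2 fold change was -0.15 ± 0.12, with a 95% interval of -0.43 to 0.13 (adjusted p = 0.628 in edgeR). It was -0.06 without PCB-11 replicate 2 and -0.23 without PCB-11 replicate 3.

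Both embryonic alpha genes overlapped between the groups as well. For hbae3 the values were 348.6, 275.3 and 337.5 CPM with DMSO and 363.4, 316.0 and 438.8 CPM with PCB-11. PCB-11 replicate 3 was the highest pool and DMSO replicate 2 the lowest, and the log2 fold change was 0.22 ± 0.15, with a 95% interval of -0.12 to 0.56 (adjusted p = 0.557 in edgeR). That value dropped to 0.09 on leaving out PCB-11 replicate 3 and to 0.12 on leaving out DMSO replicate 2. For hbae1 the values were 187.4, 138.1 and 159.6 CPM with DMSO and 186.7, 159.2 and 143.2 CPM with PCB-11. The highest pools of the groups were within 1 CPM of each other, and the log2 fold change was 0.01 ± 0.14, with a 95% interval of -0.31 to 0.33 (adjusted p = 0.977 in edgeR).

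**Figure D1:**
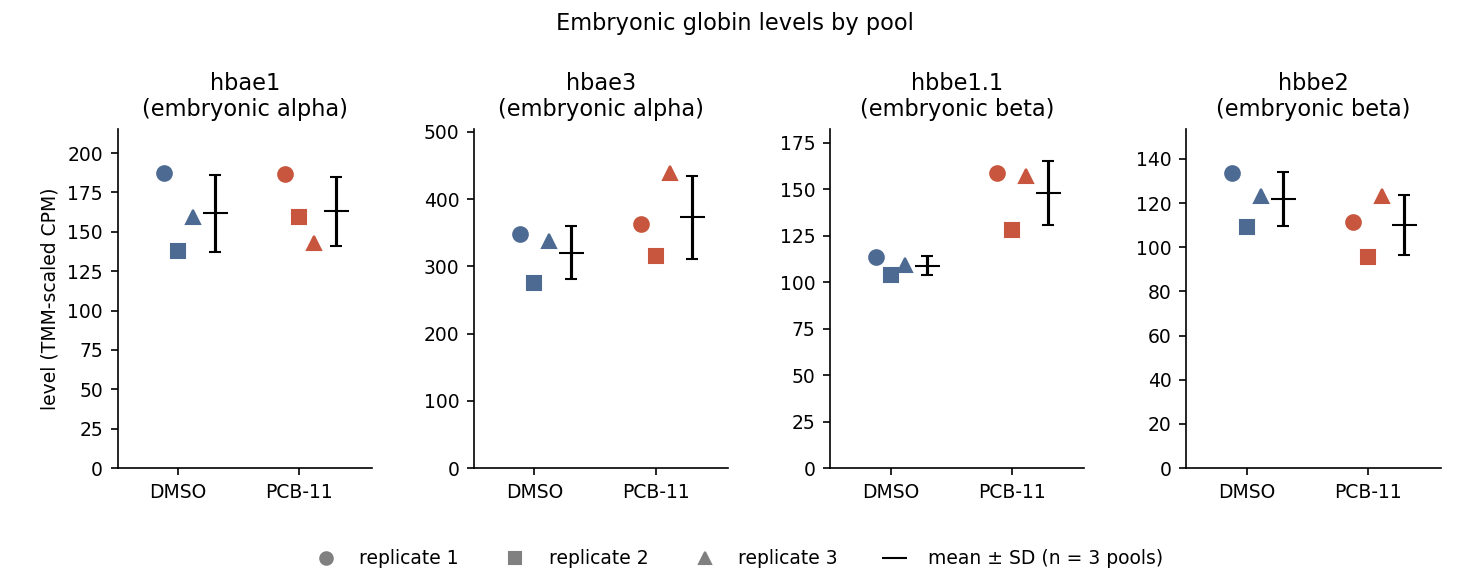
Levels of the 4 tested globins in each pool, in TMM-scaled CPM on a linear axis from 0. Points are single pools with the marker giving the replicate number, and bars give mean ± SD over 3 pools. The PCB-11 pools of hbbe1.1 (128.2 to 158.7 CPM) lie above its DMSO pools (103.7 to 113.6 CPM), and the groups of the other 3 genes overlap.

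In all, edgeR called 0 of the 4 tested members, against 0.0463% of all genes tested (0.0386% higher and 0.00772% lower). Before adjustment, 1 member, hbbe1.1, had a p under 0.05, against 11.8% of all genes. The median log2 fold change of the 4 was 0.11, beside 0.0015 over all 12960 genes tested. Of the 4 members, 3 had positive values and 1, hbbe2, a negative value, where 50.2% of all genes were above 0.

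The balance of alpha to beta globin counts was close to the same in every pool. The summed alpha counts were 2.17, 1.94 and 2.14 times the summed beta counts in the DMSO pools, against 2.04, 2.12 and 2.08 times in the PCB-11 pools. On the log2 scale the ratio was 1.06 ± 0.09 under DMSO and 1.05 ± 0.03 under PCB-11 (SD, n = 3 pools each). The difference of -0.002 is smaller than the spread between pools. The beta sum joins hbbe1.1 and hbbe2, whose log2 fold changes had opposite signs. For single members, the log2 ratio of hbae3 to hbbe1.1 differed by -0.22, and the groups overlapped. That of hbae3 to hbbe2, chosen after seeing the data, differed by 0.36 with no overlap. These ratios are of counts, not of counts per length of transcript, so their size does not give a molar balance, and a difference in length between members would enter where the mix of members shifts. Beta genes held 32.5% ± 1.32 of globin counts in DMSO and 32.5% ± 0.454 in PCB-11.

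The alpha and beta sums differed between the groups by like amounts. Alpha globins summed to 482.3 ± 62.8 CPM in DMSO and 535.8 ± 54.8 in PCB-11, and beta globins to 230.9 ± 17.3 and 258.2 ± 30.1 CPM. On the log2 scale PCB-11 minus DMSO was 0.155 for alpha and 0.157 for beta. Over all members the pools stood at 783.5, 626.3 and 729.8 CPM in DMSO and 820.3, 699.2 and 862.4 CPM in PCB-11. These groups overlapped, and DMSO replicate 2 was the lowest pool of all.

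Within the beta class the mix differed. Counts of hbbe1.1 were 0.85, 0.95 and 0.89 times those of hbbe2 in the DMSO pools, against 1.42, 1.34 and 1.28 times in the PCB-11 pools. The log2 ratio was -0.16 ± 0.08 under DMSO and 0.43 ± 0.08 under PCB-11 (SD, n = 3 pools each), 0.59 apart and with no overlap. The gap between the nearest pools of the groups was thus wider than the whole range within either group. Without PCB-11 replicate 2 the difference was 0.59 as well. The pair was singled out after its values were seen, so no p is given.

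As a share, hbbe1.1 made up 45.9% of beta globin counts in DMSO replicate 1 (95% Wilson interval 44.4% to 47.4%), 48.7% in replicate 2 (47.2% to 50.2%) and 47.0% in replicate 3 (45.6% to 48.5%). In PCB-11 replicates 1, 2 and 3 the share was 58.7% (57.4% to 60.1%), 57.2% (55.6% to 58.8%) and 56.1% (54.7% to 57.4%). These intervals cover counting error within a pool only and no variation between pools. They overlapped within each group, for PCB-11 replicates 1 and 3 only just, at 57.4%. No interval of one group met one of the other, which is not a test between the groups. Library scaling does not enter this share, but reads dropped or exchanged between near-identical copies can. A further row matched to hbbe1.1, si:busm1-118j2.5, was listed at 0 in every pool. The row of hbbe1.3, si:ch211-5k11.12, had at most 1 count in any pool. The numerator may therefore not be the reads of a single gene.

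The alpha class showed no shift of this kind. The log2 ratio of hbae1 to hbae3 was -0.90, -0.99 and -1.08 in DMSO and -0.96, -0.99 and -1.62 in PCB-11. PCB-11 replicate 3 alone stood low, with hbae1 at 24.6% of alpha globin counts (95% Wilson interval 23.8% to 25.4%) against 32.1% to 35.0% in the other 5 pools. The difference between the groups was -0.20 with that pool and 0.02 without it. Of the 6 ratios between pairs of tested members, 3 did not overlap between the groups, hbbe1.1 to hbbe2, hbae3 to hbbe2 and hbae1 to hbbe1.1. Over all pairs of 11915 genes with a mean of at least 1 on the log2 CPM scale, 19.7% did not overlap.

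**Figure D2:**
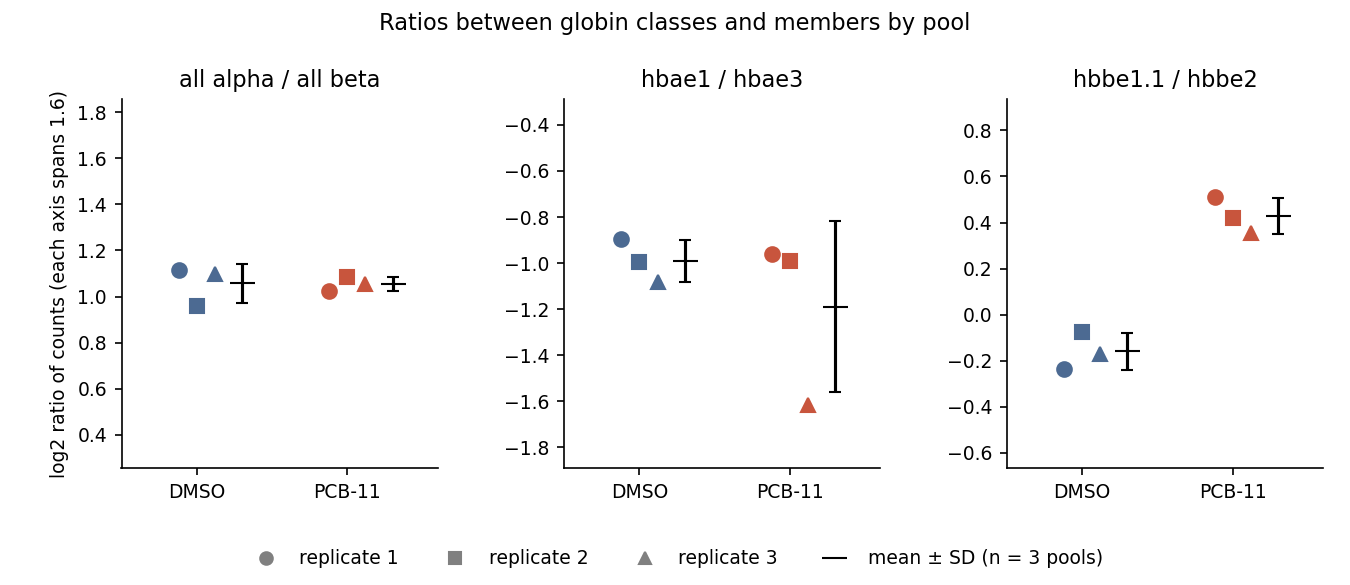
Log2 ratios of counts in each pool for all alpha over all beta globins, hbae1 over hbae3, and hbbe1.1 over hbbe2. Each vertical axis spans the same 1.6 log2 units, points are pools and bars are mean ± SD over 3 pools. The first ratio stays near 1.06 in both groups, the second has 1 low pool at -1.62, and the third lies at -0.24 to -0.07 in DMSO and 0.35 to 0.51 in PCB-11.

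The levels of the globins were set beside those of other red cell genes to see whether they moved with them. Of the 10 red cell markers found, 4 had higher and 6 had lower values in PCB-11, where 50.2% of all genes were above 0. The number called by edgeR was 0, against 0.0463% of all genes (smallest adjusted p = 0.321, median log2 fold change -0.08). At that share, 0 calls among 10 genes say little about them. The groups did not overlap for 4 of the 10, against 19.4% of all genes. The summed level of all 10 was 456.4 to 488.5 CPM in DMSO and 367.7 to 509.4 CPM in PCB-11, with PCB-11 replicate 2 the lowest pool.

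Markers on the higher side were alas2, the first enzyme of heme synthesis in red cells, nt5c2l1, cahz, a red cell carbonic anhydrase, and tspo. For alas2 the values were 34.1, 32.8 and 35.7 CPM with DMSO and 47.3, 38.3 and 48.3 CPM with PCB-11. All PCB-11 pools lay above all DMSO pools, as in 10.0% of all genes. The log2 fold change was 0.39 ± 0.11 (unadjusted p = 0.00722, adjusted p = 0.321 in edgeR). The groups were also apart for nt5c2l1, at 14.8 ± 0.482 and 18.7 ± 1.13 CPM, and for cahz, at 84.1 ± 3.85 and 95.0 ± 2.99 CPM (SD, n = 3 pools each).

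On the lower side were 4 genes of the red cell membrane and its skeleton and 2 transcription factor genes. The anion exchanger gene slc4a1a, which encodes band 3, had 55.1, 65.0 and 60.1 CPM with DMSO and 52.9, 35.4 and 51.9 CPM with PCB-11. All PCB-11 pools lay below all DMSO pools (9.35% of all genes), with PCB-11 replicate 2 far under the rest, and the log2 fold change was -0.36 ± 0.15 (adjusted p = 0.412 in edgeR) but -0.20 without that pool (adjusted p = 0.585). The spectrin gene sptb (-0.41 ± 0.22) and the Rh-associated glycoprotein gene rhag (-0.32 ± 0.20) overlapped between the groups, and without that pool stood at -0.18 and -0.10. So did klf17 (-0.18 ± 0.23), an erythroid Krüppel-like factor gene, the cytoskeletal gene epb41b (-0.13 ± 0.13) and gata1a (-0.03 ± 0.25), the erythroid GATA factor gene.

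**Figure D3:**
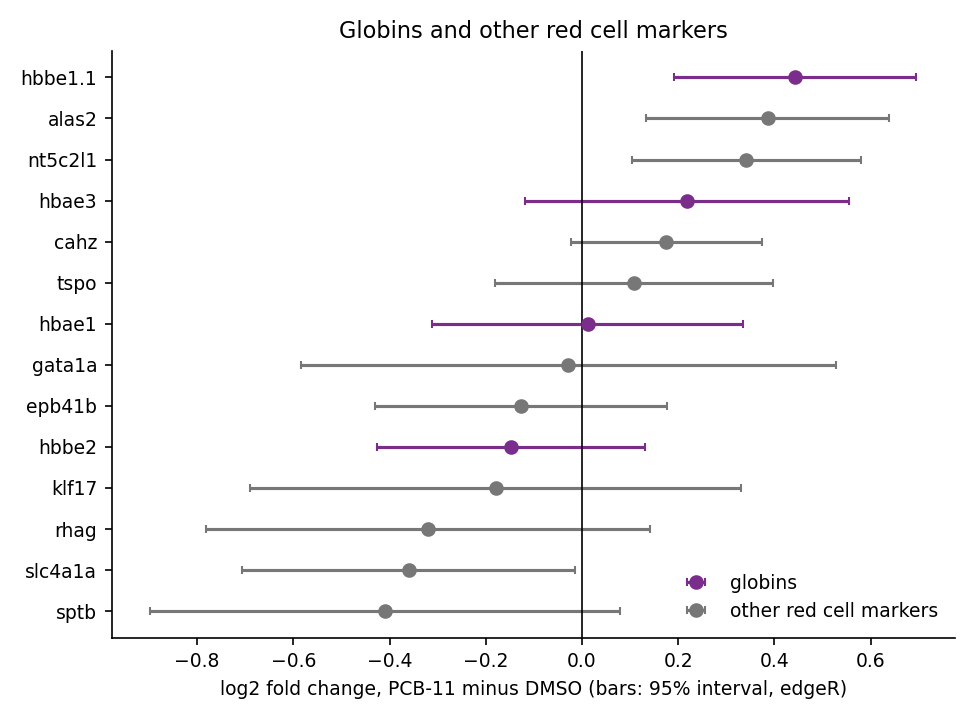
Log2 fold changes, PCB-11 minus DMSO, of the 4 tested globins and the 10 red cell markers, with 95% intervals from the edgeR fit. Values run from -0.41 for sptb to 0.44 for hbbe1.1, and none passed the adjusted threshold.

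Measured against slc4a1a, itself lower in all PCB-11 pools, the hbbe1.1 level parted the groups more widely than on its own. The log2 ratio of hbbe1.1 to slc4a1a was 0.86 ± 0.19 in DMSO and 1.68 ± 0.15 in PCB-11, 0.82 apart, or 0.73 without PCB-11 replicate 2. Against alas2 it was 1.67 ± 0.06 in DMSO and 1.73 ± 0.02 in PCB-11, and the groups overlapped. The log2 ratio of alas2 to slc4a1a also parted the groups, 0.76 apart with no overlap. That of hbbe2 to slc4a1a was 0.23 apart, and the groups overlapped. All of these ratios were picked with their values already known, and no p is given.

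Genes were also ranked by how closely their pattern over the 6 pools followed the globins, as the root mean square difference of log2 CPM after each gene was centred on its own mean. Over 11911 genes, those nearest to the summed embryonic globins were cradd, a death-domain adaptor gene (0.036), the nuclease gene dffb (0.042), the interleukin receptor gene il10rb (0.045) and nme6 (0.054). In a ranking this long over so few pools, some genes will lie this near without any link, and no test was made. The red cell genes cahz and alas2 stood at ranks 536 and 846, and slc4a1a at rank 10049.

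For hbbe1.1 alone, a ranking added after its values were seen, alas2 was the second nearest of the 11911 genes (0.047). The others of the first 4 were the tetraspanin gene tspan34 (0.042), cga, which encodes the alpha subunit of pituitary glycoprotein hormones (0.048), and hbp1 (0.073), which encodes a transcription factor and no globin. These 4 were picked as nearest over the same pools, so their likeness to hbbe1.1 follows from the choice and was not tested. For hbbe2, alas2 stood at rank 8218, and the nearest gene was serpina1 (0.027), which encodes a liver protease inhibitor.

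**Figure D4:**
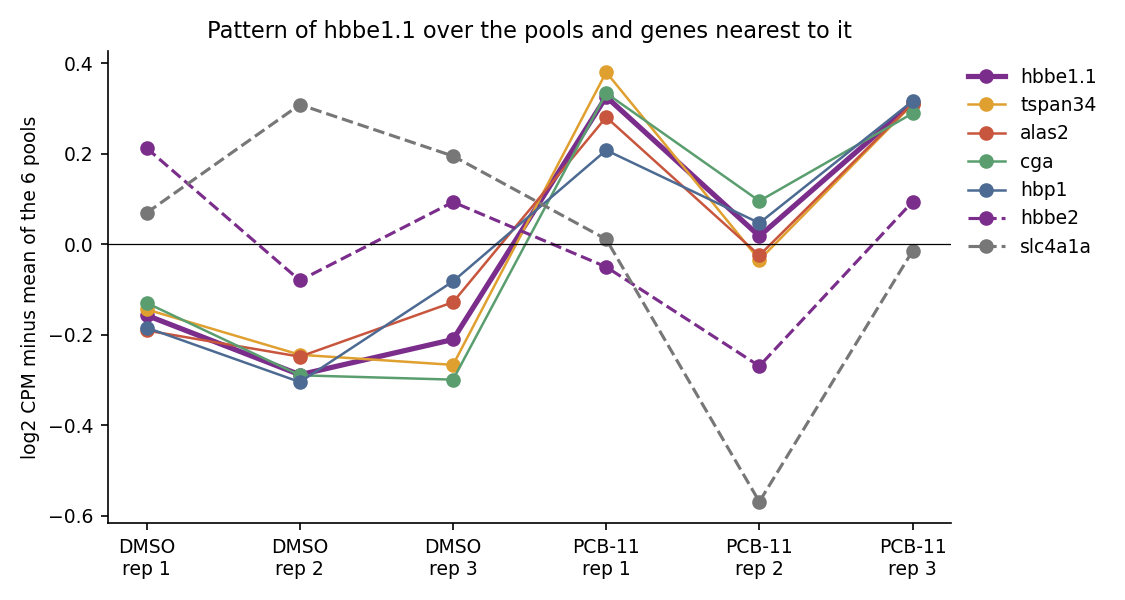
Log2 CPM of hbbe1.1, of the 4 genes nearest to it and of hbbe2 and slc4a1a in each pool, each centred on its own mean over the 6 pools. Lines join the values of 1 gene and imply no order of the pools. The nearest genes, with alas2 among them, lie low in the DMSO pools and high in PCB-11 replicates 1 and 3, while hbbe2 and slc4a1a follow other courses. The nearest genes were picked for likeness to hbbe1.1 over these same pools, so their shared course follows from the choice.

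The wider lists of red cell genes gave no call by edgeR in either direction, where 0.0463% of all genes were called. The list of heme synthesis, heme breakdown and iron uptake had 19 tested members and a median log2 fold change of -0.08. At an unadjusted p under 0.05, 1 was higher and 4 lower (5.80% and 6.04% of all genes). The 4 lower ones were tfr1a, the transferrin receptor gene of red cell precursors (-0.74 ± 0.26, adjusted p = 0.373), the heme synthesis gene ppox (-0.55 ± 0.22), the biliverdin reductase gene blvra (-0.52 ± 0.20) and hmbsa (-0.27), a heme synthesis gene named here after its value was seen. Counts of tfr1a were low, at 22 to 46 per pool. The last enzyme of heme synthesis, fech, had -0.33 ± 0.28.

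Membrane proteins and enzymes of the red cell had 17 tested members and a median of -0.05. At an unadjusted p under 0.05, 3 were higher and 1 lower (5.80% and 6.04% of all genes). Higher were bpgm, whose product makes the bisphosphoglycerate that tunes oxygen binding in mammalian red cells (0.41 ± 0.12, adjusted p = 0.321), nt5c2l1 (0.34 ± 0.11) and dmtn, which encodes an actin-bundling protein of the red cell skeleton (0.36 ± 0.14). The lower one was slc4a1a. Both bpgm (46.3 CPM) and dmtn (81.4 CPM) were highest in PCB-11 replicate 2, as was the neuron marker snap25a (853 CPM). The part of other tissues in these values was not tested.

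Erythroid factors had 22 tested members and a median of -0.08. At an unadjusted p under 0.05, 2 were higher and 3 lower (5.80% and 6.04% of all genes). Higher were the blood progenitor factors tal1 (0.37 ± 0.15) and lmo2 (0.33 ± 0.12). The groups overlapped for tal1, at 40.9, 36.6 and 36.6 CPM in DMSO and 50.4, 58.4 and 38.7 CPM in PCB-11. The highest pool for tal1 was PCB-11 replicate 2, as for the neuron marker snap25a (853 CPM). The part of other tissues in the tal1 value was not tested. Lower were zfpm1, the partner of GATA1 (-0.46 ± 0.15, adjusted p = 0.353), klf1 (-0.61 ± 0.27) and the erythropoietin receptor gene epor (-0.57 ± 0.25). Counts per pool were low for klf1 (24 to 68) and epor (16 to 40). The hormone gene epo itself had 3 to 7 counts per pool and was not tested, and myb, a factor of definitive progenitors, had -0.02 ± 0.13. Over these 3 lists together 58 genes were tested and 0 called by edgeR, against 0.0463% of all genes. Before adjustment 14 were under 0.05, where 11.8% of all genes were. DESeq2 and limma-voom likewise called 0 of the 58, against 0.899% and 0.00% of all genes. Without PCB-11 replicate 3 edgeR called 2 of the 58, where 1.41% of all genes were called. They were tal1, higher (0.52), and tmod4, a tropomodulin gene likewise named after its value was seen, lower (-0.46). The pool left out was the highest in all 3 skeletal muscle markers, with ckma at 6680 CPM against 3941 and 3490 CPM in PCB-11 replicates 1 and 2. The part of muscle in the tmod4 value was not tested.

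Genes linked to the globin switch in mammals, listed as globin switching factors, had 16 tested members and a median of -0.15. At an unadjusted p under 0.05, 0 were higher and 1 lower (5.80% and 6.04% of all genes). The lower one was sox6 (-0.39 ± 0.15, adjusted p = 0.389 in edgeR), a repressor of embryonic globins in the mouse. Both copies of the gene for BCL11A, the repressor of fetal globin in humans, overlapped between the groups, bcl11aa with -0.14 ± 0.16 and bcl11ab with -0.27 ± 0.16. The RNA-binding protein gene igf2bp3 had -0.26 ± 0.13, chd4a -0.21 ± 0.12 and hbs1l -0.15 ± 0.08.

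Globins outside the red cell lineage formed a list of 5 tested genes with those that bind free heme. At an unadjusted p under 0.05, 2 were higher and 0 lower (5.80% and 6.04% of all genes). Neuroglobin, ngb, was higher in every PCB-11 pool (0.56 ± 0.18, adjusted p = 0.353 in edgeR), and the heme scavenger gene hpx had 0.99 ± 0.37 on 22 to 90 counts per pool. Myoglobin, mb, had -0.14 ± 0.09 and cygb2, a cytoglobin gene, 0.16 ± 0.19.

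Genes known to flank globin clusters in fish or mammals numbered 9 tested. At an unadjusted p under 0.05, 1 was higher, polr3k (0.37 ± 0.13), and 0 lower, against 5.80% and 6.04% of all genes. The gene nprl3, whose introns hold the main alpha globin enhancer in mammals and which lies beside the larger cluster in GRCz12tu, stood at 15.0 ± 0.917 CPM with DMSO and at 15.3 ± 1.47 CPM with PCB-11 (0.03 ± 0.12). Further along on that side, rhbdf1a had -0.21 ± 0.11, and the further listed genes arhgdig and snrnp25 had 0.15 ± 0.11 and 0.13 ± 0.15.

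**Figure D5:**
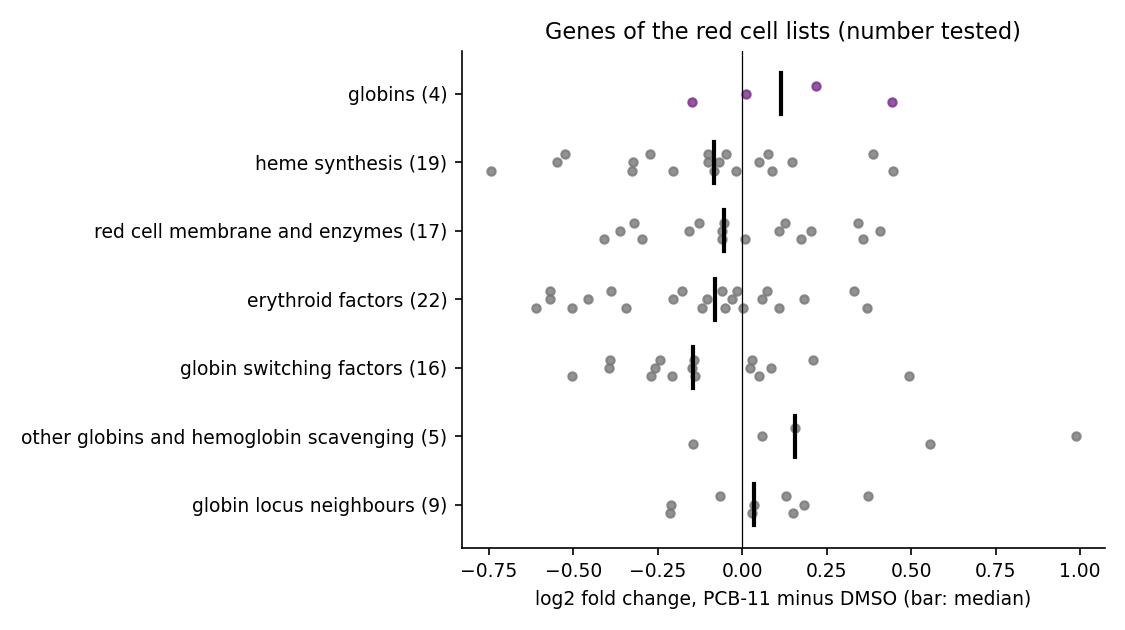
Log2 fold changes, PCB-11 minus DMSO, of every tested gene in the globin set and in 6 related lists, with the number tested in brackets. Points are genes, offset vertically for legibility alone, and black bars are medians, which run from -0.15 for the globin switching factors to 0.16 for the other globins.

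Other blood cells overlapped between the groups in their summed levels. The summed level of the macrophage list was 13.5 to 51.3 CPM in DMSO and 15.2 to 58.4 CPM in PCB-11, with DMSO replicate 1 and PCB-11 replicates 1 and 2 low and the other 3 pools high. None of its 9 tested genes passed an unadjusted p of 0.05, nor did any of 5 neutrophil or 5 thrombocyte genes, where 11.8% of all genes did. The medians were -0.28, 0.04 and -0.07 in that order.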

How the data were processed

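The data are poly(A) RNA counts from 6 pools, 3 per group, grouped and numbered from the sample titles. The authors deposited 1 table per pool of raw read counts per gene symbol. The submitters' processing notes name the build danRer7 and Cufflinks, while the choice of aligner, counter, strand setting and annotation is not given in the sources used here. Rows for reads outside genes (31.4% to 39.1% of counts) and ambiguous reads (0.379% to 0.429%) stayed out of totals and tests.

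Counts were fitted with edgeR 4.0.16 in R 4.3.3 over 12960 genes that passed its default filter, with TMM scaling, robust dispersion and group as the only term. Tests were two-sided quasi-likelihood tests, with calls made under 0.05 after Benjamini-Hochberg adjustment over all genes. Log2 fold changes give PCB-11 relative to DMSO, with SE from the F statistic, and CPM are TMM-scaled. The script was tested on simulated counts. Per-length class ratios had been planned, but no transcript or coding lengths were used here, so ratios are of plain counts. Ratios and sums over members carry no p.

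Members and gene lists were chosen with earlier results of these data known. Named genes were every member, the 4 smallest p of each list, fixed key genes, and the 4 genes nearest in pattern. Of these, zbtb7a and hemgn were not found in the tables. Globin and other rows were matched to the RefSeq table of GRCz12tu for names and neighbours alone. No sequences are printed. Alternatives were other scalings and filters, library totals without globins, DESeq2 1.42.0, limma-voom (limma 3.58.1), non-robust dispersion, a replicate block and leaving out each pool. Figures used matplotlib 3.10.9.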

Additional observations from a re-analysis of the deposited data

How the results depend on the processing

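Over 16 alternatives the log2 fold change of hbbe1.1 ran from 0.39 to 0.54 and its adjusted p from 0.0485 to 0.825. DESeq2 alone called it, so that the count of called members was 1 there and 0 in the other 15. With each pool left out in turn that count was 0 throughout, and the count of red cell list genes was 0 to 2, the 2 arising without PCB-11 replicate 3. The log2 fold change of hbae1 ran from -0.10 to 0.13 with a pool left out, and was negative on leaving out DMSO replicate 2 (-0.09) or PCB-11 replicate 1 (-0.10). With a pool left out hbae3 ran from 0.09 to 0.32 and hbbe2 from -0.23 to -0.06, so only hbae1 of the 4 tested members changed sign. Among the other genes named, values moved in both directions without PCB-11 replicate 2. Those that came nearer to 0 included ppox (-0.35), fech (-0.10), klf17 (-0.06), klf1 (-0.39), dmtn (0.17), tal1 (0.23) and ngb (0.28). So did bpgm (0.29), sox6 (-0.29) and epor (-0.43). The sign changed for cygb2 (-0.06), gata1a (0.13) and myb (0.04). Values of tfr1a (-0.91), blvra (-0.65) and alas2 (0.48), among others, moved further from 0. The summed globin level differed by 0.16 on the log2 scale, and by 0.06 to 0.24 with a pool left out. The alpha to beta difference was -0.002, and -0.05 to 0.03 with a pool left out, but with 1 member of each class alone its sign turned on the beta gene taken. It was -0.22 for hbae3 against hbbe1.1, the beta gene with most counts over all 6 pools, and 0.36 for hbae3 against hbbe2, the beta gene with more counts in every DMSO pool, an alternative chosen after seeing the data. The difference in the hbbe1.1 to hbbe2 ratio, chosen after seeing the data, was 0.55 to 0.63 with a pool left out.

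Deviations of same-numbered pools from their group means correlated at 0.26, -0.15 and 0.37 across genes. Differently numbered pools were not compared, so these values cannot show whether the replicate numbers mark a pairing. With a replicate block 0 members were called, the log2 fold change of hbbe1.1 was 0.44 (adjusted p = 0.157 in edgeR), and calls over all genes went from 6 to 26. Without a pool calls over all genes were 0 to 184, DESeq2 made 112 and limma-voom 0, with 1540 genes under 0.05 before adjustment. The embryonic to adult ratio was not run under any alternative, because hbaa1 had 0 counts in some pools. Fold changes of hbaa1 and hbbe3 cannot be measured at this depth.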

Other observations

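A further embryonic alpha globin was counted under another symbol. The row zgc:163057, listed in GRCz12tu as hbae4 of the smaller cluster, had 16, 19 and 26 counts in the DMSO replicates and 29, 19 and 26 in the PCB-11 replicates. It lies in the same cluster as hbbe2, which had 1559 to 2416 counts per pool.

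The genes nearest in pattern, from a ranking added after the values were seen, differed from member to member, within the alpha class as within the beta class. For hbae3 the nearest were the cathepsin gene ctsl.1 (root mean square difference 0.056 on the log2 scale) and tnfaip6 (0.056), with alas2 at rank 276. For hbae1 they were commd1 (0.050) and il1rapl2 (0.060), with alas2 at rank 7711.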
